A study of Mus musculus with 6 samples.

Results

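The ion, bicarbonate and metal transporter genes of osteoblastic cells were examined. They were taken by symbol from the solute carrier (Slc) families 4, 8, 9, 11, 12, 24, 26, 30, 31, 39, 40 and 41, which gave 83 of the 43346 rows of the table of genes. RNA had been sequenced from MC3T3-E1, an established mouse osteoblastic line, in 2 groups of 3 libraries. One group is labelled a control line. The other is labelled Rorβ-CRISPR (KO), a line edited in the nuclear receptor gene Rorb. Both were grown to confluence and then kept for 2 days in osteoblastic medium, so differentiation is common to all 6 libraries. The labels give neither the guide sequence nor the number of edited clones. What the edit did and what else sets the lines apart therefore cannot be told apart.

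Solute carriers are membrane proteins that move ions and small molecules across cell and organelle membranes. An osteoblast needs them in several places. Mineral formation releases protons, which bicarbonate and sodium-proton carriers help to remove. Calcium leaves the cell partly through sodium-calcium exchangers. Alkaline phosphatase and the collagen-modifying enzymes need zinc, copper or iron that carriers deliver, and sulfate enters through an anion exchanger for the proteoglycans of the matrix.

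Reads in genes numbered 34662707 to 42603315 per library. Values are reads relative to a library size that the authors had scaled with trimmed-mean (TMM) factors, and a value of 1 stood for 36.9 to 46.1 reads. Rorb itself had 1, 3 and 0 reads in control, against 69, 78 and 111 reads in the Rorβ-CRISPR libraries. The RNA of the targeted gene thus goes against a simple reading of the label, and directions are given by label. All 11 osteoblast markers examined were expressed, 5 of them higher and 6 lower in the labelled libraries. Their summed values were 72196 to 74671 in control and 42900 to 44253 in the labelled libraries. Most of these sums was Col1a1 (means of 35509 and 20891) and Col1a2 (30527 and 17252), so the sums say little about the other markers. Markers of red blood cells, fat cells, endothelium and epithelium summed to at most 0.460 in any library. The marker Tubb3, listed for neurons, was 6.12 ± 0.677 (SD, n = 3) in control and 32.3 ± 3.29 in the labelled libraries, while Snap25 and Rbfox3 had 0 reads. Of 7 macrophage and osteoclast markers, Ctsk fell from 166 ± 6.25 to 85.8 ± 3.56, Csf1r lay at 6.59 ± 0.102 and 6.38 ± 0.595, and Ptprc, Cd68, Emr1, Acp5 and Ocstamp were not expressed. Chondrocyte markers (5) summed to 322 to 343 and 224 to 238, mainly Col2a1, with Acan at 0, and skeletal muscle markers (5) to 8.44 to 9.66 and 3.30 to 3.63, with Myod1 and Myog at 0. The part of these other-cell markers in the results below was not tested. In RNA from whole cultures, fewer cells of a type and less RNA per cell cannot be told apart.

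A gene was called expressed when its value was at least 1 in at least 3 libraries. By that rule 50 of the 83 members were expressed and tested, and 33 were not. The test was limma-trend on log2(value + 1) over all 13498 expressed genes, with a Benjamini-Hochberg adjusted p of 0.05 as threshold. Fold changes are on that scale, which understates changes of low genes. The labels do not state that the replicates were separate cultures, so the p-values describe the spread among these libraries only.

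In the libraries labelled Rorβ-CRISPR, 9 of the 50 tested members rose, 28 fell and 13 were not called. Among tested members the iron exporter gene Slc40a1 (ferroportin) had the lowest log2 fold change, having passed the filter only through its control libraries, where it was high, and the sodium-calcium exchanger gene Slc8a3 rose the furthest. Of all 13498 tested genes 66.2% were called, 32.9% higher and 33.3% lower, so the share of members called (74%) lay near the background. Of the tested members 56% fell and 18% rose, and their median log2 fold change was -0.18, against 0.002 for all genes. That balance depends on the scaling. Scaled by library size only, the median gene moved up by 0.22 on the log2 scale, and 20 members were then higher and 13 lower, beside 7291 and 1975 of all genes. Directions below are therefore relative to the median gene. Counts by carrier class and by gene list below stand beside the same shares of all tested genes, 32.9% higher and 33.3% lower.

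Most of these changes were small. A fold of at least 1.5 on the log2(value + 1) scale was reached by 8 of the 50 members (16%), against 13.9% of all genes. They included Slc40a1, Slc9a3r1, Slc39a14, Slc4a7 and Slc9a9, which fell, and Slc4a11 and Slc8a3, which rose, and these 7 kept their directions with library size only. The low genes Slc26a10, Slc8a2 and Slc39a1-ps did not reach that fold on this scale. Their control means were 1.91, 1.81 and 1.52 times the labelled means. Non-overlapping groups were found for 37 of the 50 members, against 68.4% of all tested genes.

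**Figure D1:**
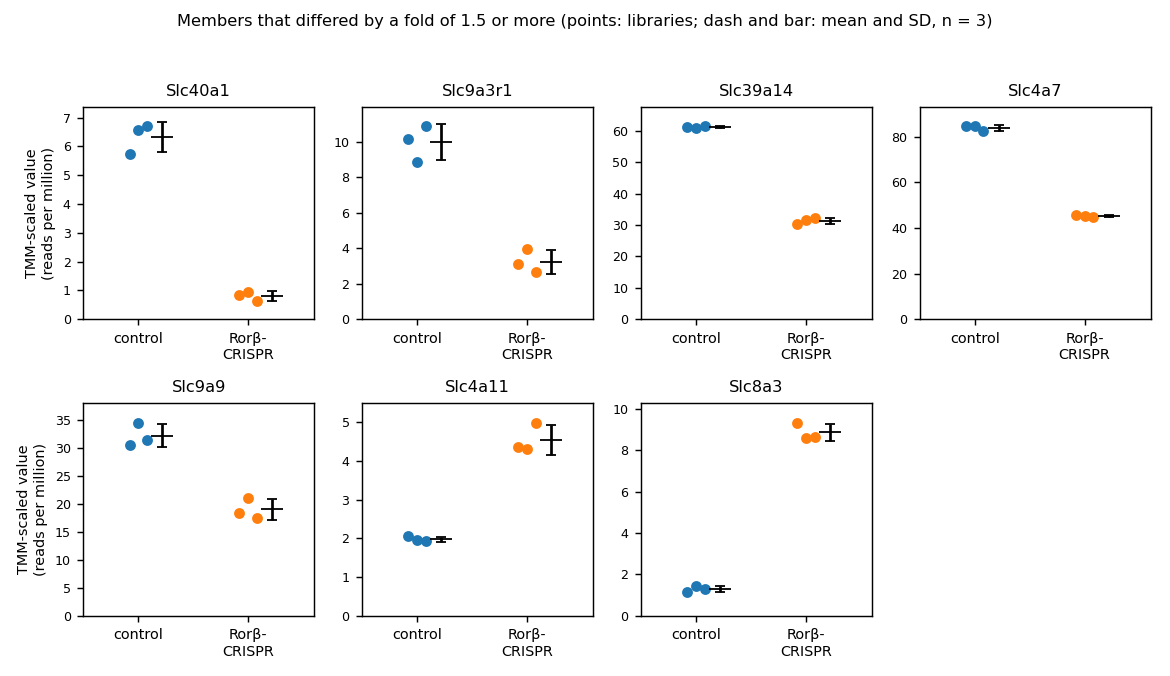
TMM-scaled value (vertical axis, from 0) of 7 members with a fold of 1.5 or more. Each point is a library, and the dash and bar are the mean and SD of 3 libraries. The members were drawn because of the fold, so points of control and Rorβ-CRISPR that do not overlap add no support. Slc40a1 lay between 5.74 and 6.71 in control and between 0.635 and 0.955 in the labelled libraries. It passed the filter only through its control libraries.

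**Figure D2:**
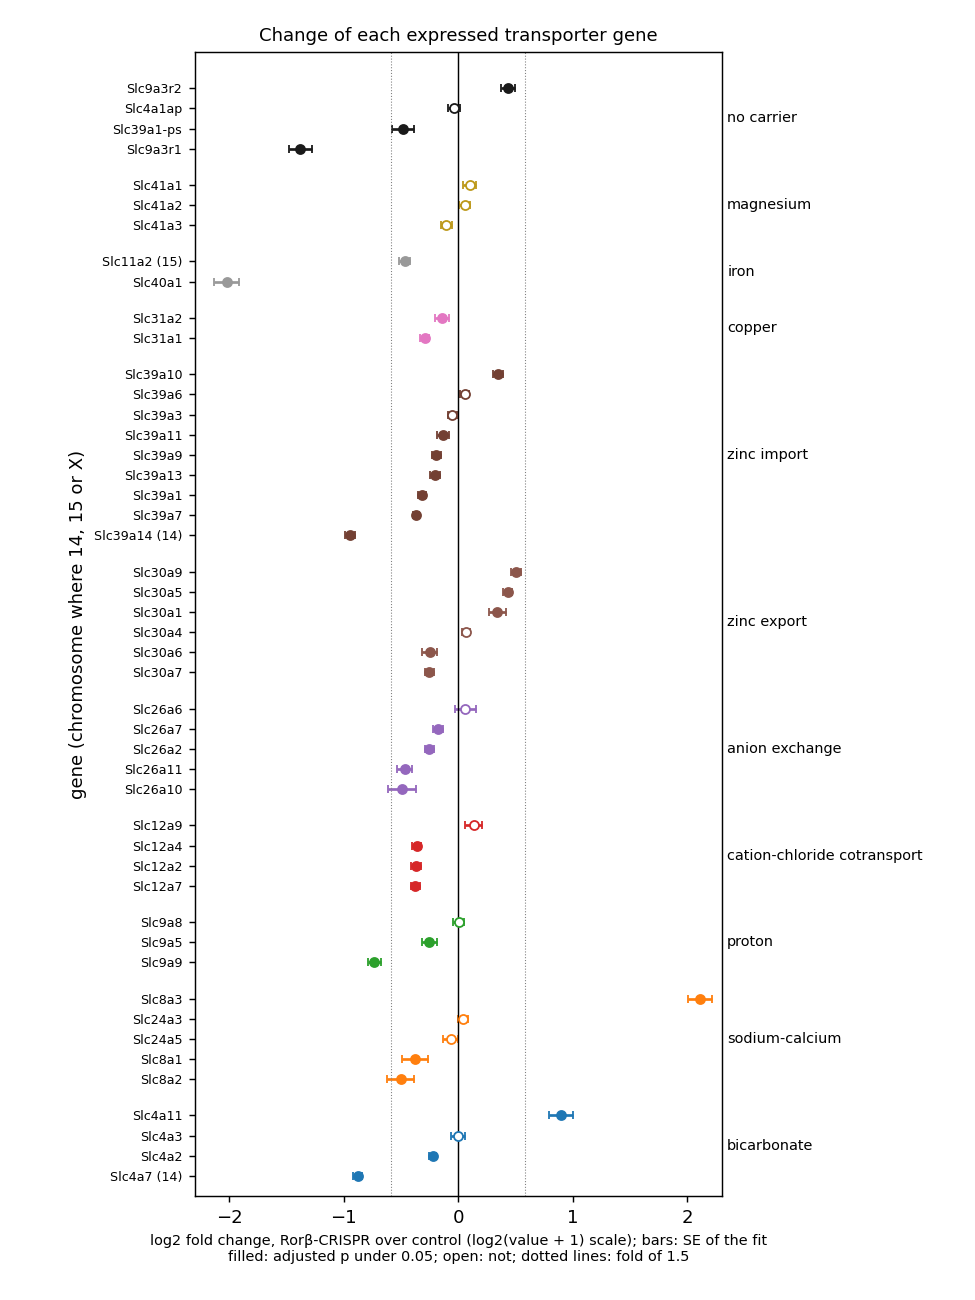
Log2 fold change (Rorβ-CRISPR over control, log2(value + 1) scale) of 47 expressed members with the SE of the fit, by carrier class. Filled points have an adjusted p under 0.05 (34 members), open points do not (13 members), and dotted lines mark a fold of 1.5. Most points lie between the dotted lines, and 32 of the 47 are below 0. With library size only, the points move up by 0.12 to 0.23, least for low genes.

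The bicarbonate carriers form the Slc4 family, which moves bicarbonate in exchange for chloride or together with sodium. Of its 10 carriers 4 were expressed. In the libraries labelled Rorβ-CRISPR, Slc4a7 and Slc4a2 fell, Slc4a11 rose and Slc4a3 was not called. Slc4a7 encodes the electroneutral sodium-bicarbonate cotransporter NBCn1, which loads cells with base. Its values were 84.6, 84.7 and 82.4 in control and 45.7, 45.2 and 44.6 in the labelled libraries (log2 fold change -0.88, SE 0.039, adjusted p = 5.14e-26, limma). Every control library lay far above every labelled one. Slc4a7 lies on chromosome 14, where the median of 401 tested genes was -0.53, and its log2 fold change relative to that median was -0.35. The part of the chromosome-wide shift in the values of genes on chromosomes 14, 15 and X was not tested.

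Slc4a11 belongs to the family by sequence but is known to carry protons and water rather than bicarbonate, and is best known from the cornea. It was low, with values of 2.06, 1.95 and 1.93 in control and 4.36, 4.30 and 4.99 in the labelled libraries. Its value was 2.3 times the control mean (log2 fold change 0.90, SE 0.105, adjusted p = 1.46e-10). Reads numbered 75 to 78 per control library and 161 to 220 per labelled library, without overlap. Slc4a2, the chloride-bicarbonate exchanger AE2, had values of 100.2, 94.5 and 99.8 in control and 83.5, 85.0 and 83.0 in the labelled libraries (log2 fold change -0.22, SE 0.034, adjusted p = 1.32e-07). It was no longer called with library size only (-0.001), and 14.9% of the exon bases of Slc4a2 overlap the gene Fastk on the other strand. Fastk was not called. Relative to the median of chromosome 5 (0.21) the log2 fold change of Slc4a2 was -0.43. Slc4a3 (AE3) was 19.4 ± 1.15 in control and 19.4 ± 0.387 in the labelled libraries (log2 fold change -0.0013).

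Summed over the 10 Slc4 carriers, Slc4a11 included, the level was 199 to 207 in control and 153 to 154 in the labelled libraries. Slc4a2 was the highest expressed of them per length of exon in both groups, with 21.1 units of value per kilobase in control, ahead of Slc4a7 at 10.3. The family median was -0.11 over the 4 tested genes and -0.22 with Slc4a11 left out, a choice made after seeing the data. With library size only the median of all 4 was 0.11, so its sign turned. Carbonic anhydrases make and consume the bicarbonate that these carriers move. Of 16 listed, 5 were expressed, 2 rose, none fell and 3 were not called. Car3 rose from 0.929 ± 0.226 to 4.29 ± 0.343 (log2 fold change of 1.46 with an SE of 0.114). It had 39, 41 and 27 reads in control, and its control libraries alone would not have passed the filter. The mitochondrial Car5b, on chromosome X, rose from 20.3 ± 1.14 to 27.5 ± 1.65. The median of 435 tested genes of that chromosome was 0.65, and relative to it Car5b was at -0.23. Car2, the abundant isoform of osteoclasts, had 0 reads in every control library and 0, 4 and 2 in the labelled ones.

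The sodium-calcium exchangers comprise Slc8, which trades sodium for calcium, and Slc24, which also moves potassium. Of 8 members 5 were expressed. In the libraries labelled Rorβ-CRISPR 1 rose, 2 fell and 2 were not called, and within Slc8 the 3 genes went in different directions. Slc8a3 (NCX3) had values of 1.14, 1.43 and 1.29 in control and 9.34, 8.59 and 8.66 in the labelled libraries. Its mean was 6.91 times that of control (log2 fold change 2.11, SE 0.101, adjusted p = 2.11e-24; edgeR log2 fold change 2.78). The reads behind it were 42, 55 and 52 against 345, 396 and 382. For Slc8a3 the fold in the authors' deposited table is 6.87.

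Slc8a2 (NCX2), in other tissues mainly a brain isoform, fell instead. Its values were 1.79, 1.92 and 2.13 in control and 1.16, 1.09 and 0.975 in the labelled libraries (log2 fold change -0.50, SE 0.116, adjusted p = 0.000168). Slc8a1 (NCX1), the widely expressed isoform, had values of 2.38, 2.31 and 2.10 in control and 1.33, 1.37 and 1.86 in the labelled libraries (log2 fold change -0.38, SE 0.115, adjusted p = 0.00342). The groups of both genes did not overlap, but the Slc8a1 call was lost with library size only (adjusted p = 0.0756). Per kilobase of exon, Slc8a2 was the highest of the 3 exchangers in control (0.370, against 0.253 for Slc8a3 and 0.122 for Slc8a1). In the labelled libraries Slc8a3 was the highest at 1.75, with Slc8a2 at 0.204 and Slc8a1 at 0.0815. The control order depends on the length used, all annotated exons of a gene merged, which is 18620 bases for Slc8a1 and 5261 for Slc8a2. By value without length Slc8a1 was the highest in control, with a mean of 2.26 against 1.95 for Slc8a2 and 1.28 for Slc8a3.

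Of the 5 Slc24 genes, Slc24a1, Slc24a2 and Slc24a4 had at most 2 reads in any library, and Slc24a3 and Slc24a5 were expressed and not called. Slc24a3 (NCKX3) was 45.8 ± 1.17 in control and 47.2 ± 0.440 in the labelled libraries (log2 fold change 0.04). Slc24a5 was 15.3 ± 0.920 and 14.6 ± 0.398 (log2 fold change -0.07), and its reads cannot be told apart from those of Myef2, which covers 36.5% of its exon bases on the other strand. The class median was -0.07, or 0.14 with library size only. Among 14 genes of calcium pumps and mitochondrial calcium exchange, 10 were expressed, 2 rose, 6 fell and 2 were not called. Atp2b4, a plasma membrane calcium pump, fell from 105 ± 3.54 to 42.5 ± 1.32 (log2 fold change of -1.29 with an SE of 0.039, adjusted p = 4.13e-33). Micu2, a gatekeeper of the mitochondrial calcium uniporter, fell from 80.4 ± 3.54 to 46.3 ± 1.54 (log2 fold change -0.78). It lies on chromosome 14 and was at -0.26 relative to that chromosome.

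The window of 250 bases before the annotated start of 3 members is printed because they show the largest rise (Slc8a3), a fall in a gene with a ROR motif (Slc4a7) and the zinc exporter known for its metal response (Slc30a1). The sequences are RefSeq windows on build GRCm38.p6, 5′ to 3′ along each gene: chr12:81333181-81333430 (minus strand), chr14:14718534-14718783 (plus strand) and chr1:191906531-191906780 (plus strand). Capitals mark matches, on either strand, to the motif AGGTCA bound by ROR receptors and to the metal response element core TGCACNC or TGCGCNC.
Slc8a3: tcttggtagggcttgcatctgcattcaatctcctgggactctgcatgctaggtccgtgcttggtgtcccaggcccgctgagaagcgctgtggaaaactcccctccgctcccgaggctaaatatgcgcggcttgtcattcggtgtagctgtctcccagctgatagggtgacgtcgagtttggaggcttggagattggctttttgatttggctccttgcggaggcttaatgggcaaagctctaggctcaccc
Slc4a7: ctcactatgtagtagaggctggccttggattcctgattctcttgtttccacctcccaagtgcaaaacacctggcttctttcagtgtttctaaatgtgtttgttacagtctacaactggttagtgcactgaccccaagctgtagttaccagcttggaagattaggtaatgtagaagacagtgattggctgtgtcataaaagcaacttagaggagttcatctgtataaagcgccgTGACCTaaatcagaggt
Slc30a1: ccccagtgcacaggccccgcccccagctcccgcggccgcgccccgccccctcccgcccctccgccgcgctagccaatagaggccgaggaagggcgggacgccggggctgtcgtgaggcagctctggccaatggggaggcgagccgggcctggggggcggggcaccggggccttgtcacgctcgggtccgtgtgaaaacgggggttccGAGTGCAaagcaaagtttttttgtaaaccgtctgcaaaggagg
The Slc8a3 window held neither motif, that of Slc4a7 held TGACCT, the same motif on the other strand, 17 bases before its start, and that of Slc30a1 held 1 metal response core 43 bases before its start. Of the 50 expressed members 37 had a window in the table, with 43 windows in all. The ROR motif was in 5 of these 43 windows (11.6%), against 14.02% of all 32851 windows, and its members were Slc4a7, Slc4a2, Slc12a7, Slc24a3 and Slc31a2. The metal response core was in 17 of the 43 (39.5%), against 21.4% of all windows. The 43 windows are of expressed members only, while the 32851 are of genes whether expressed or not. These sets are thus unlike, and the difference in shares was not tested. A match describes letters only and shows no binding.

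The sodium-proton exchangers (Slc9) expel protons from the cytosol or set the pH of endosomes and the Golgi. Of 9 carriers 5 were expressed, of which 2 rose, 2 fell and 1 was not called in the labelled libraries. Slc9a9 (NHE9), an exchanger of endosomes encoded on chromosome 9, had values of 30.5, 34.5 and 31.5 in control and 18.4, 21.0 and 17.5 in the labelled libraries (log2 fold change -0.73, SE 0.060, adjusted p = 4.93e-15). The labelled libraries were all below the control ones, and relative to its chromosome the log2 fold change was -0.71.

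Slc9a5 (NHE5) had values of 19.8, 18.7 and 18.2 in control and 15.6, 16.9 and 14.6 in the labelled libraries (log2 fold change -0.25, SE 0.065, adjusted p = 0.00062), a call lost with library size only. Slc9a8 (NHE8) of the Golgi was 36.7 ± 1.53 and 36.9 ± 1.56 (log2 fold change 0.0047). The class median was 0.005, or 0.22 with library size only. Summed over the 9 carriers the level was 152 to 166 in control and 167 to 176 in the labelled libraries. Per kilobase of exon, Slc9a9 stood at 9.27 in control and 5.47 in the labelled libraries, and Slc9a8 at 8.13 and 8.15.

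The scaffold genes Slc9a3r1 and Slc9a3r2 carry Slc9 symbols without encoding carriers. Slc9a3r1 (NHERF1) anchors membrane proteins, among them phosphate transporters of the kidney, to the cytoskeleton. Its values were 10.1, 8.88 and 10.9 in control and 3.09, 3.95 and 2.65 in the labelled libraries (log2 fold change -1.38, SE 0.101, adjusted p = 7.18e-17). The control mean was 3.09 times the labelled mean. Its relative Slc9a3r2 (NHERF2) went the other way, from 16.9, 16.5 and 17.9 to 23.1, 22.8 and 24.3 (log2 fold change 0.43, SE 0.060, adjusted p = 1.15e-08). Of the 10 listed partners and relatives of the exchangers, 9 were found in the table and 4 were expressed, of which 2 rose and 2 fell. Ezr (ezrin), which binds both scaffolds, rose from 35.4 ± 0.605 to 46.7 ± 0.324. Chp1, an obligate partner of the exchangers, fell from 174 ± 2.39 to 150.1 ± 2.37, a direction that turned with library size only (0.01). The voltage-gated proton channel gene Hvcn1 fell from 15.6 ± 0.403 to 12.5 ± 0.614, a call lost with library size only. The other members without a carrier were Slc4a1ap, at 29.7 ± 1.503 and 28.9 ± 1.44 (log2 fold change -0.04), and the pseudogene Slc39a1-ps, described with its parent below.

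Chloride moves through the cation-chloride cotransporters (Slc12), which set cell volume, and through the anion exchangers (Slc26). Of 9 Slc12 genes 5 were expressed, none rose, 4 fell and 1 was not called in the libraries labelled Rorβ-CRISPR. Those that fell included Slc12a2, Slc12a4 and Slc12a7. Slc12a7 (KCC4) had values of 80.9, 88.5 and 81.1 in control and 62.9, 65.8 and 63.5 in the labelled libraries (log2 fold change -0.38, SE 0.038, adjusted p = 2.85e-12), and relative to chromosome 13 (0.20) its log2 fold change was -0.58. Slc12a2 (NKCC1), which brings chloride in with sodium and potassium, had 55.5, 59.5 and 59.6 against 44.2, 47.4 and 43.2 (log2 fold change -0.37, SE 0.043, adjusted p = 1.94e-10). Slc12a4 (KCC1), which takes chloride out with potassium, had 73.6, 73.8 and 71.1 against 57.2, 55.8 and 56.3 (log2 fold change -0.36, SE 0.038, adjusted p = 7.25e-12). Importer and exporters thus both fell, without overlap between the groups. With library size only Slc12a4 lost its call (adjusted p = 0.0526), and Slc12a2 and Slc12a7 kept theirs.

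Slc12a9 was 12.6 ± 0.940 and 13.9 ± 1.14 (log2 fold change 0.14) and was not called. The Slc12 median was -0.36, and -0.14 with library size only. Summed over the family, values were 275 to 281 in control and 218 to 227 in the labelled libraries. Per kilobase of exon, Slc12a4 (19.1 in control) and Slc12a7 (16.2) exceeded Slc12a2 (8.93).

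Kinases of the WNK and SPAK families switch these cotransporters. Of 18 genes of such kinases and of the sodium pump, 10 were expressed, 6 rose, 3 fell and 1 was not called. Among all tested genes 66.2% were called. Stk39 (SPAK), which activates Slc12a2 and inhibits the potassium-chloride cotransporters, rose from 13.98 ± 0.652 to 29.7 ± 0.315 (log2 fold change of 1.04 with an SE of 0.059, adjusted p = 1.99e-21). Its relative Oxsr1 rose from 40.3 ± 2.45 to 50.9 ± 1.12. Wnk1, the kinase above both, fell from 608 ± 3.87 to 504 ± 6.78, a call lost with library size only (-0.04).

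The Slc26 anion exchangers had 5 of 11 genes expressed, of which none rose, 4 fell and 1 was not called. Slc26a2, the sulfate transporter whose loss causes chondrodysplasia in humans, had values of 81.4, 85.8 and 86.4 in control and 73.8, 68.7 and 69.8 in the labelled libraries (log2 fold change -0.25, SE 0.037, adjusted p = 5.3e-08). Slc26a7, a chloride carrier, had 53.9, 52.3 and 51.0 against 46.1, 44.99 and 47.3 (log2 fold change -0.18, SE 0.042, adjusted p = 0.000224). Slc26a11 had 21.2, 19.9 and 19.97 against 13.3, 14.8 and 15.2 (log2 fold change -0.47, SE 0.065, adjusted p = 1.22e-08). None of these 3 genes had overlapping groups, but with library size only Slc26a2 lost its call and Slc26a7 turned to 0.04.

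The low gene Slc26a10 had values of 1.79, 1.38 and 1.46 in control and 0.839, 0.716 and 0.862 in the labelled libraries (log2 fold change -0.49, SE 0.121, adjusted p = 0.000385; edgeR log2 fold change -0.93). It passed the filter only through its control libraries, and 22.8% of its exon bases overlap B4galnt1 on the other strand, which fell as well (-0.27). Slc26a6 was 7.16 ± 0.581 and 7.53 ± 0.531 (log2 fold change 0.06) and was not called. The Slc26 median was -0.25, and -0.03 with library size only.

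**Figure D3:**
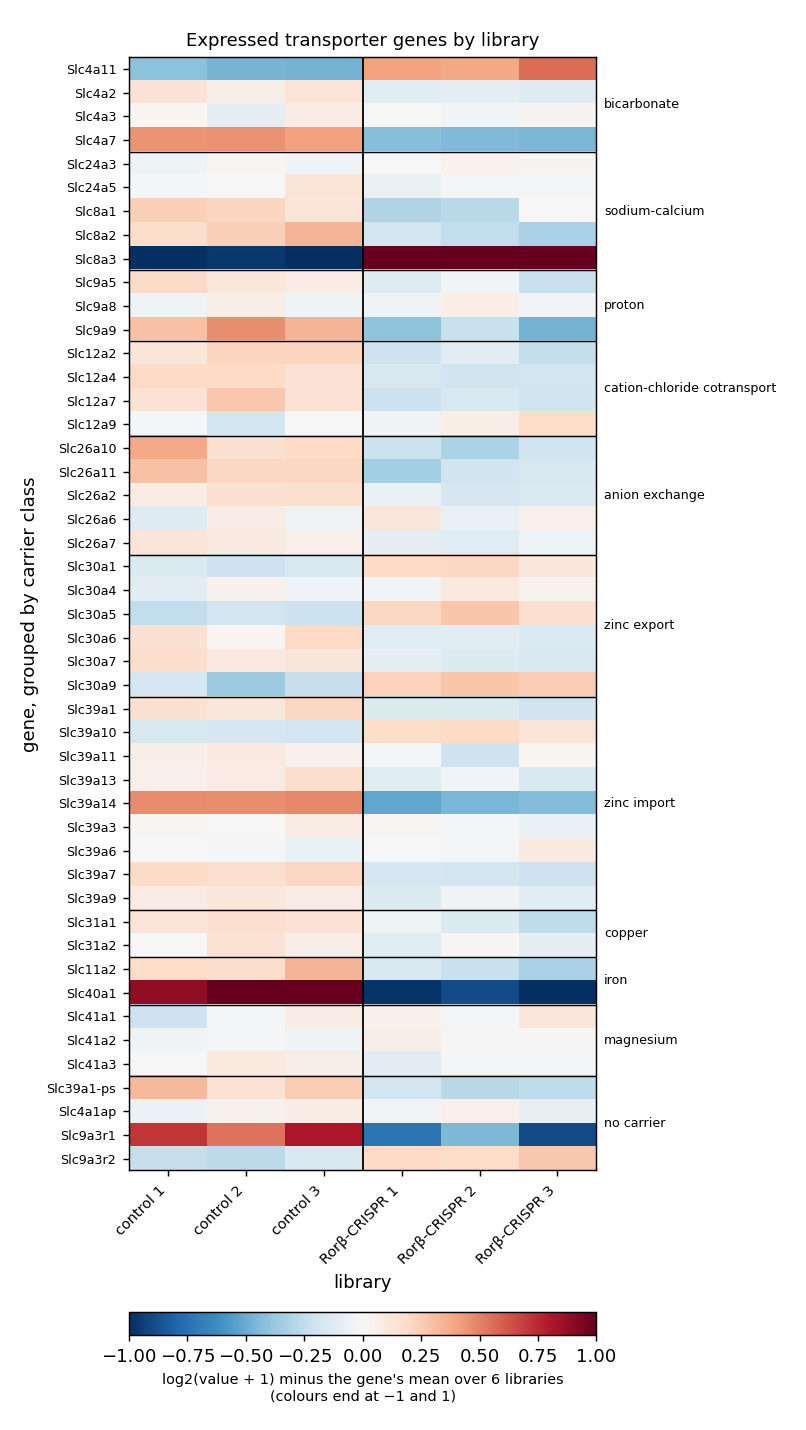
Log2(value + 1) of 47 expressed members (rows, by class) in each of the 6 libraries (columns), as the difference from the gene's own mean, with colours ending at -1 and 1. Rows with strong colour change at the line between control and Rorβ-CRISPR, and the 3 libraries of a group look alike in them. Scaled by library size only, the difference between right and left would shift up by 0.12 to 0.23.

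Zinc leaves the cytosol through the Slc30 family, outward or into organelles. Of 10 Slc30 genes 6 were expressed, of which 3 rose, 2 fell and 1 was not called in the labelled libraries. Slc30a9, known from mitochondria, rose from 47.9, 41.6 and 45.8 to 63.1, 65.4 and 64.4 (log2 fold change of 0.51 with an SE of 0.044, adjusted p = 1.7e-14). Slc30a5 (ZnT5) rose from 59.9, 62.5 and 61.2 to 82.4, 86.5 and 79.9 (log2 fold change of 0.43 with an SE of 0.038, adjusted p = 2.04e-14). Slc30a1 (ZnT1), the exporter at the cell surface, rose from 9.63, 9.19 and 9.50 to 12.5, 12.5 and 11.7 (log2 fold change of 0.34 with an SE of 0.075, adjusted p = 8.75e-05). In each of these 3 genes every labelled library lay above every control library.

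Chromosomes 5, 13 and 1, which hold Slc30a9, Slc30a5 and Slc30a1, had medians of 0.21, 0.20 and 0.12. Relative to them the log2 fold changes were 0.30, 0.23 and 0.22. ZnT5 works as a pair with ZnT6, and this pair and ZnT7 load zinc into alkaline phosphatase in the secretory pathway. Slc30a5 rose, while the other two fell. Slc30a6 (ZnT6) had values of 19.4, 17.7 and 20.1 in control and 15.9, 16.02 and 15.6 in the labelled libraries (log2 fold change -0.25, adjusted p = 0.000598). Slc30a7 (ZnT7) had 74.6, 70.5 and 71.8 against 61.8, 60.1 and 59.5 (log2 fold change -0.25, SE 0.038, adjusted p = 8.83e-08). Both calls were lost with library size only (-0.04 and -0.03), while that of Slc30a5 held. Alpl, the gene of the phosphatase and an osteoblast marker, rose from 10.9 ± 0.387 to 22.8 ± 1.39. The 11 osteoblast markers went in both directions, 5 higher and 6 lower.

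Slc30a4 was 105 ± 5.63 and 110.2 ± 4.57 (log2 fold change 0.07) and was not called. Per kilobase of exon Slc30a5 (19.2 in control, 26.1 in the labelled libraries) and Slc30a4 (19.2 and 20.1) were the highest zinc exporters. The Slc30 median was 0.21, and 0.42 with library size only. The summed value was 311 to 314 in control and 341 to 355 in the labelled libraries.

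Zinc enters the cytosol through the Slc39 (ZIP) family. Of 14 Slc39 carriers 9 were expressed, and 1 rose, 6 fell and 2 were not called. Slc39a14 (ZIP14), which carries zinc, manganese and iron, fell the furthest. Its values were 61.2, 61.0 and 61.5 in control and 30.2, 31.8 and 32.1 in the labelled libraries (log2 fold change -0.94, SE 0.044, adjusted p = 4.81e-25). The control mean was 1.95 times the labelled mean. It lies on chromosome 14, and its log2 fold change relative to that chromosome's median was -0.42. Slc39a10 (ZIP10) was the member that rose, from 40.04, 39.7 and 39.1 to 51.0, 51.6 and 49.5 (log2 fold change 0.35, SE 0.043, adjusted p = 6.88e-10). Relative to chromosome 1 (0.12) its log2 fold change was 0.23. Its close relative Slc39a6 (ZIP6) was 55.3 ± 1.25 and 57.5 ± 2.26 (log2 fold change 0.06) and was not called.

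Slc39a7 (ZIP7), which releases zinc from the endoplasmic reticulum, had the highest value of any member and also the highest level per kilobase of exon, at 139.9 in control and 108 in the labelled libraries. Its values were 332, 325 and 335 in control and 259, 255 and 251 in the labelled libraries (log2 fold change -0.37, SE 0.025, adjusted p = 2.04e-18). The gene model Gm20427 covers 84.5% of its exon bases on the same strand, and its row read 314 ± 5.80 and 244 ± 3.78, so the reads of the 2 rows cannot be told apart. Slc39a1 (ZIP1), a zinc importer of the cell surface known from bone-forming cells, fell from 91.9, 89.8 and 95.7 to 75.2, 75.2 and 71.9 (log2 fold change of -0.32 with an SE of 0.036, adjusted p = 7.04e-11). Its pseudogene Slc39a1-ps was listed at 5.55, 4.78 and 5.22 against 3.57, 3.30 and 3.38 (log2 fold change -0.48, SE 0.099, adjusted p = 3.04e-05), reads that near-identical copies may share. The Slc39a1 call was lost with library size only (adjusted p = 0.202).

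Smaller falls were seen in Slc39a13 (-0.21), Slc39a9 (-0.19) and Slc39a11 (-0.14). Slc39a13 (ZIP13) acts in the secretory pathway, and its loss causes a connective tissue disorder with skeletal dysplasia in humans. It was 58.3 ± 2.56 in control and 50.4 ± 2.36 in the labelled libraries. Slc39a9 (ZIP9) was 67.2 ± 0.854 and 58.8 ± 2.22. Slc39a11 was 34.2 ± 0.706 and 31.2 ± 2.65, and it lost its call without control replicate 2 or without Rorβ-CRISPR replicate 2. All 3 turned above 0 with library size only (0.02, 0.03 and 0.08). Slc39a3 was 59.1 ± 1.69 and 57.0 ± 1.67 (log2 fold change -0.05) and was not called.

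Summed over the 14 carriers, zinc import genes had values of 790.4 to 808 in control and 660.2 to 670.1 in the labelled libraries. Zinc import and zinc export thus had sums that moved in opposite directions, with medians of -0.19 and 0.21. Genes within each family were mixed, with 6 import genes lower and 1 higher, and 3 export genes higher and 2 lower. Much of the change in the import sum came from Slc39a7 (means of 330 and 255) and from Slc39a14 (61.2 and 31.4) on chromosome 14. The reads of Slc39a7 cannot be told apart from those of Gm20427. With library size only the import median was 0.03. Metallothioneins store zinc and are switched on by the zinc sensor Mtf1. Of 6 listed genes 3 were expressed, none rose, 2 fell and 1 was not called. Mt2 fell from 25.4 ± 0.750 to 17.4 ± 1.59 (log2 fold change of -0.52 with an SE of 0.062, adjusted p = 1.77e-10). Mt1 fell from 41.7 ± 0.245 to 36.1 ± 2.98, a direction that turned with library size only (0.01), and Mtf1 was 27.8 ± 0.601 and 28.4 ± 1.38.

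**Figure D4:**
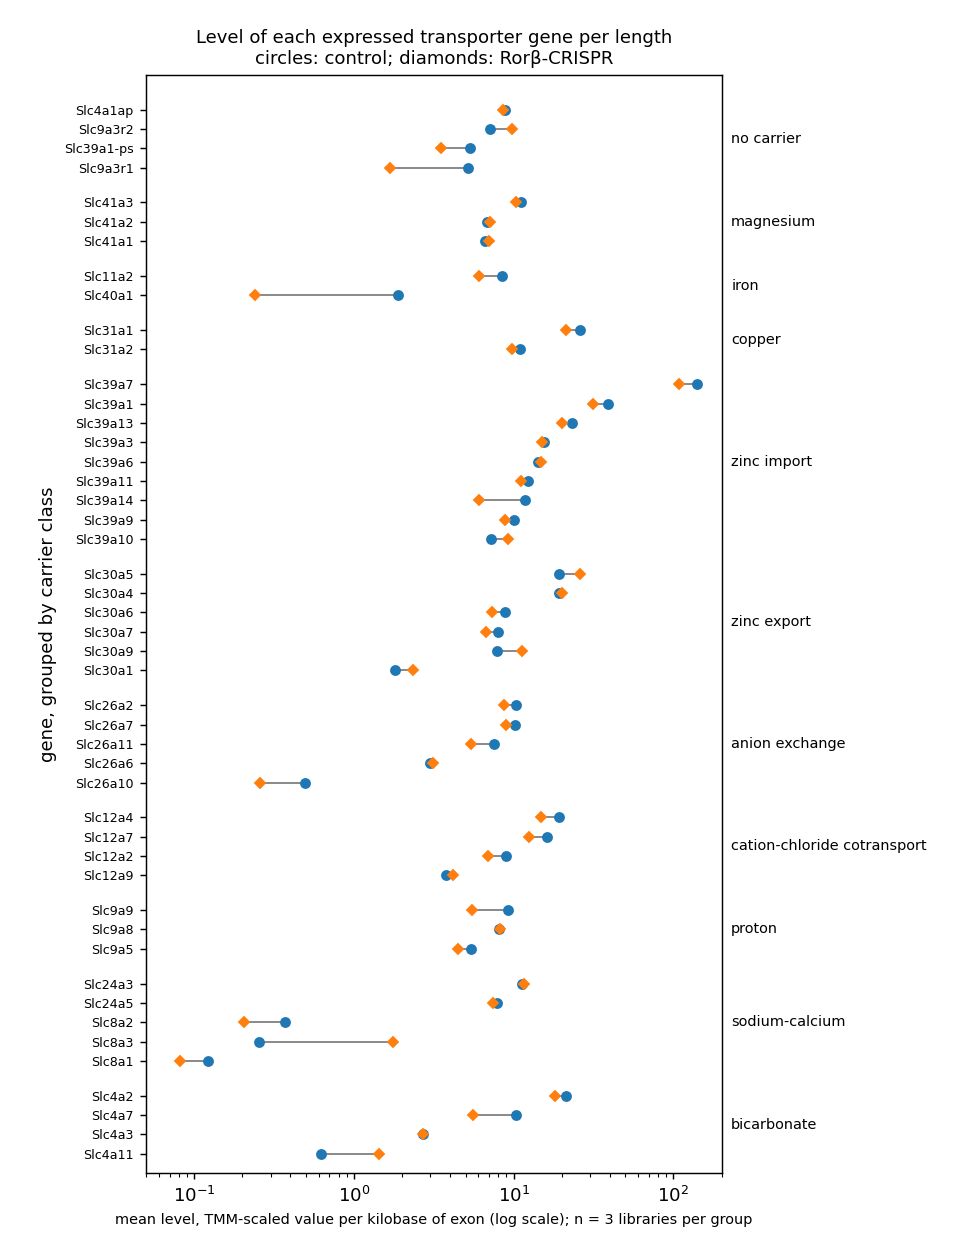
Mean level of 47 expressed members per kilobase of exon (horizontal log axis, TMM-scaled value per kilobase), as circles for control and diamonds for Rorβ-CRISPR (3 libraries each). Slc39a7 stands highest at 139.9 and 108, and the Slc8 genes, Slc4a11, Slc26a10 and Slc40a1 lie at the low end. The exchanger Slc8a3 moves from 0.253 to 1.75, above both Slc8 relatives.

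Copper is carried by the Slc31 family, and both genes were expressed and fell in the libraries labelled Rorβ-CRISPR. Slc31a1 (CTR1), the main copper importer, had values of 110.3, 113 and 112 in control and 96.9, 91.5 and 84.3 in the labelled libraries (log2 fold change -0.29, SE 0.037, adjusted p = 2.3e-09). Slc31a2 (CTR2) had 21.1, 23.2 and 22.03 against 19.1, 21.1 and 19.5 (log2 fold change -0.14, SE 0.060, adjusted p = 0.0301). The Slc31a2 groups overlapped, and its call was lost when any of 4 single libraries was left out (adjusted p up to 0.147). With library size only neither gene was called. Of 11 copper handling genes 9 were expressed, 3 rose, 1 fell and 5 were not called. Atp7a, the copper pump that supplies lysyl oxidase, rose from 38.2 ± 1.40 to 53.1 ± 1.90, but it lies on chromosome X and was 0.18 below that chromosome's median (-0.18). Commd1 rose by 0.14 and Cp (ceruloplasmin) fell by 0.14 (log2), the latter turning with library size only (0.08).

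Iron enters through Slc11 carriers and leaves through ferroportin, the Slc40a1 product and the only known iron exporter of mammalian cells. Of the 3 genes 2 were expressed, and both fell in the libraries labelled Rorβ-CRISPR. Slc40a1 had values of 5.74, 6.57 and 6.71 in control and 0.839, 0.955 and 0.635 in the labelled libraries. The control mean was 7.82 times the labelled mean (log2 fold change -2.02, SE 0.109, adjusted p = 2.74e-22). Reads numbered 212, 253 and 271 against 31, 44 and 28, and with edgeR on the reads the log2 fold change was -2.96. The authors' deposited table gives -2.96 as well, on the log2 scale of its fold. Slc40a1 passed the filter only through its control libraries. Chromosome 1, which holds it, had a median of 0.12. When any control library was left out, Slc40a1 no longer passed the filter and was not tested.

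Slc11a2 (DMT1), which carries iron out of endosomes, had values of 46.5, 46.3 and 52.1 in control and 36.6, 35.0 and 32.4 in the labelled libraries (log2 fold change -0.47, SE 0.049, adjusted p = 1.31e-11). It lies on chromosome 15, where the median of 479 tested genes was -0.26, and relative to that its log2 fold change was -0.21. Importer and exporter genes thus both fell. Other iron handling genes went in both directions, with 18 of 25 expressed, 9 higher, 7 lower and 2 not called. Hfe, a regulator of iron sensing, fell from 12.5 ± 0.912 to 4.62 ± 0.282 (log2 fold change of -1.26 with an SE of 0.086, adjusted p = 2.53e-18). Fbxl5, which removes an iron regulatory protein, rose from 60.1 ± 0.668 to 79.5 ± 1.98. It lies on chromosome 5, and its log2 fold change was 0.40, or 0.19 relative to that chromosome's median.

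Magnesium is carried by Slc41. All 3 genes were expressed and none was called in the libraries labelled Rorβ-CRISPR. Slc41a1, a magnesium exporter of the cell surface, had values of 27.5, 31.4 and 33.7 in control and 32.9, 31.6 and 34.6 in the labelled libraries, which overlapped (log2 fold change of 0.10 with an SE of 0.056, adjusted p = 0.113). Slc41a2 had values of 32.1, 32.7 and 31.9 against 34.2, 33.21 and 33.21, without overlap (log2 fold change 0.06, SE 0.048, adjusted p = 0.307). Slc41a3, of mitochondria, was 32.4 ± 1.06 and 30.1 ± 1.15 (log2 fold change -0.10, SE 0.050, adjusted p = 0.064). Among 14 other magnesium genes 11 were expressed, 5 rose, 3 fell and 3 were not called. Cnnm2 fell from 38.9 ± 0.836 to 20.9 ± 1.54 (log2 fold change of -0.87 with an SE of 0.054, adjusted p = 5.36e-20). Magt1 and Mmgt1, both on chromosome X, rose by 0.89 and 0.78, or 0.24 and 0.13 relative to that chromosome.

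**Figure D5:**
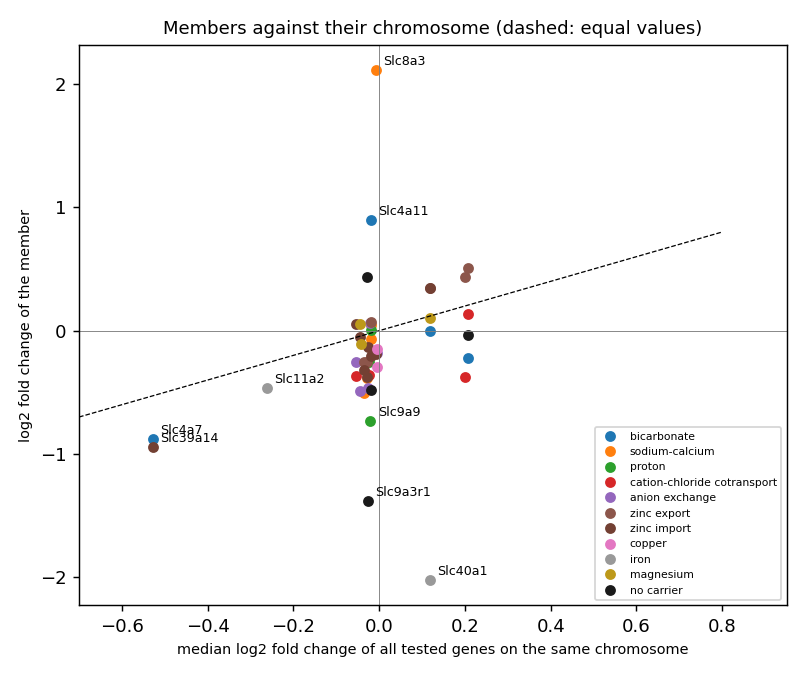
Log2 fold change of 47 expressed members (vertical) against the median log2 fold change of all tested genes on its chromosome (horizontal, by symbol in the GRCm38.p6 annotation). The dashed line marks equal values. Slc4a7 and Slc39a14 lie below it on chromosome 14, and Slc40a1, Slc8a3, Slc9a3r1 and Slc4a11 stand far from it.

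Of the 33 members that were not expressed, 8 were without a read in any library, a count that allows up to 3 reads, or a value of 0.0651 to 0.0812 in each. They include Slc4a1, the anion exchanger of red blood cells, Slc12a3 of the kidney tubule, Slc26a4 of thyroid and inner ear, Slc30a3 of synaptic vesicles and Slc39a8. A further 16 had at most 9 reads in any library, and 9 had 10 or more. Intervals below are exact 95% intervals that cover counting error only. Slc12a1, the cotransporter of the loop of Henle, had 39, 36 and 24 reads in control and 6, 4 and 6 in the labelled libraries, a ratio per library size of 6.79 (3.98 to 12.3). Slc12a8 had 16, 21 and 14 against 4, 6 and 10 reads, a ratio of 2.80 (1.64 to 4.95). Slc30a2 had 8, 8 and 16 reads in control and 0 in every labelled library. With a floor of 3 reads over the labelled group the ratio per library size was 11.7, and its exact interval began lower, at 8.98. All 3 genes had fewer reads in each labelled library than in any control library.

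Slc9a2 had 0 reads in control and 8, 0 and 12 in the labelled libraries. Slc4a4 had 11, 3 and 1 against 2, 4 and 0, and Slc26a8 had 2, 4 and 6 against 7, 5 and 16. Slc9a2 was thus read in 2 of the 3 labelled libraries and in no control library. Slc26a1 (11, 32 and 28 against 33, 43 and 20), Slc12a5 (3, 4 and 11 against 8, 14 and 10) and Slc39a5 (11, 16 and 10 against 12, 15 and 9) had overlapping read numbers, as had Slc4a4 and Slc26a8.

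By the q-values of the authors' deposited table, 35 of the 50 expressed members were under 0.05. All 35 were also called here and in the same direction, and Slc31a2 and Slc39a11 were called here only. A further 5 members that were not tested here had a q-value under 0.05 in the authors' deposited table, Slc12a1, Slc12a8, Slc30a2 and Slc39a12 with a fold under 1 and Slc9a2 with a fold above 1.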

How the data were processed

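RNA from 3 control and 3 Rorβ-CRISPR libraries had been sequenced, and the submitters' processing notes list TopHat2 2.0.6, HTSeq and build mm9. Per the file headers, the authors deposited a TMM-scaled signal per gene and library, group medians of the read count, a fold ratio, and p-values and q-values. For their test and for strand the sources used here give nothing. All values of a library were whole multiples of that of 1 read (100% within 0.01 reads), so reads were recovered. The main test was limma 3.58.1 (trend, robust; R 4.3.3) on log2(value + 1), over the genes that reached 1 in 3 or more libraries. The fit was also run on simulated counts with few changed genes and no chromosome-wide shift. That run does not bear on the scaling or on such shifts. Alternatives were edgeR 4.0.16 on the reads, DESeq2 1.42.0 size factors, library size only, pseudocounts 0.5 and 0.1, no filter, a replicate block, each replicate left out, and centring on the chromosome median. Members and gene lists were chosen with earlier results of these data known. The rule was to name every expressed member, up to 4 called members per class in full, and up to 3 called genes of smallest adjusted p per partner list. Single results of a few of these genes are not reported here, while counts, sums and medians include them. An exon length is that of all annotated exons of a gene merged. Exon lengths and overlaps came from GENCODE M21 and windows from RefSeq, both on GRCm38, so no mm9 coordinates are given. Reads of 3 rows taken as ribosomal (Lars2 among them) took 13.1% to 25.4% of a library, more in control. Their part in the shift seen with library size only was not tested. Intervals and floors cover counting error only.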

Additional observations from a re-analysis of the deposited data

How the results depend on the processing

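The calls of the 47 members reported singly were the same with edgeR on the reads, DESeq2 size factors, either pseudocount and the replicate block. Library size only gave 20 members higher and 13 lower, against 9 and 28, and 7291 and 1975 of all genes, against 4441 and 4501. Its class medians were 0.11 (bicarbonate), 0.14 (sodium-calcium), 0.22 (proton), -0.14 (cation-chloride), -0.030 (anion exchange), 0.42 (zinc export), 0.032 (zinc import), 0.00055 (copper), -1.06 (iron), 0.28 (magnesium) and 0.045 (all carriers). That scaling turned Slc4a3 (0.21), Slc26a7 (0.042), Slc39a11 (0.084), Slc39a13 (0.016), Slc39a3 (0.17), Slc39a9 (0.032), Slc31a2 (0.071), Slc4a1ap (0.18), Chp1 (0.013), Mt1 (0.015) and Cp (0.079). Centring on chromosomes moved the medians of bicarbonate to -0.24, cation-chloride to -0.31, anion exchange to -0.20, zinc export to 0.16 and magnesium to -0.019, and turned Car5b (-0.23) and Atp7a (-0.18). The iron median was -1.43 and -1.66 with pseudocounts 0.5 and 0.1 and -1.72 with edgeR, as larger folds of low genes follow from a smaller added value. With single replicates left out, 9 to 11 members were higher and 24 to 27 lower, beside 4046 to 4240 and 4095 to 4310 of all genes. The medians then ranged from -0.149 to -0.0897 (bicarbonate), -0.0941 to -0.0214 (sodium-calcium), -0.0291 to 0.0379 (proton), -0.356 to -0.334 (cation-chloride), -0.284 to -0.212 (anion exchange), 0.183 to 0.222 (zinc export), -0.220 to -0.168 (zinc import), -0.242 to -0.186 (copper), -1.277 to -0.413 (iron), 0.0226 to 0.0659 (magnesium) and -0.185 to -0.147 (all carriers). Without any 1 control library the iron median rests on Slc11a2 alone, and the anion exchange median no longer includes Slc26a10. With Slc4a11 left out of its class, an alternative chosen after seeing the data, the bicarbonate median was -0.22. Without a filter, Slc31a2 and Slc39a11 lost their calls, and 10 members were higher and 29 lower among more genes tested. Same-numbered replicates did not deviate together throughout (correlations -0.056, 0.167 and 0.127), and not every library correlated best with its own number. The replicate block gave 9 members higher and 28 lower, and 4502 and 4551 of all genes. Apart from the added value and the filter, the cause of these shifts was not tested.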
